A study of Mus musculus with 8 samples.

Results

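A set of 248 promoter regions was open in control cells only, out of 134830 accessible regions in all. Peaks from 4 ATAC-seq lists were merged where they overlapped by at least 1 base. ATAC-seq finds open chromatin as DNA that a transposase can reach. A region was kept when it held a peak in both control lists and in neither knockout list, and when its centre lay within 1 kb of a gene start read in the direction of transcription. Of the merged regions, 17717 lay that close to a gene start, and 6458 regions anywhere in the genome were open in control only. The 248 promoter regions had 258 gene starts within 1 kb. The regions were thus chosen by the peak calls, so their presence in control and absence in knockout is not a finding. The RNA of the 258 genes was not used in the choice.

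Both genotypes were cultures of bone marrow LSK progenitors (lineage-negative cells positive for Sca-1 and c-Kit) on OP9-DL1, a stromal line that presents a Notch ligand and supports early T-cell development in the dish. Knockout cells carried CreER with Tcf7-floxed and Lef1-floxed alleles, and control cells carried CreER with wild-type alleles. CreER is a Cre recombinase that works in the presence of tamoxifen, and the sources used here do not give the promoter that drives it. All cultures, control included, received 4-OH tamoxifen on days 3 to 5. The cells collected on day 7 were c-Kit-positive DN1 cells, the earliest stage lacking CD4 and CD8, with a CD44-high and CD25-negative gate. There were 2 knockout and 2 control libraries for RNA-seq, and likewise 2 and 2 for ATAC-seq. Nothing in the labels ties replicates to separate mice or cultures, so p-values measure the spread between these libraries, which may be technical.

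Tcf7 and Lef1 encode TCF1 and LEF1, DNA-binding proteins of the same family that act in T-cell development and can also work with beta-catenin in the Wnt pathway. A promoter is the stretch of DNA around a gene start where the transcription machinery assembles. Promoters rich in CpG dinucleotides are commonly open in many cell types, whereas CpG-poor promoters are more often open in particular cell types. An accessible promoter is not by itself a transcribed one.

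Tcf7 was listed at 13.2 and 12.4 TPM (a length-corrected share of each library's transcripts) in the knockout libraries, against 518 and 510 TPM in the control libraries. Lef1 stood at 1.46 and 1.57 TPM in knockout and at 1.66 and 1.10 TPM in control, too low in both genotypes for its RNA to check the deletion. The knockout peak lists held 109380 and 111007 peaks outside the mitochondrial chromosome, and the control lists 103009 and 105227. At least 1 TPM was reached by 13134 and 13050 genes in knockout and by 13188 and 13314 genes in control. Kit (157 and 157 TPM in knockout, 251 and 238 TPM in control) and Cd44 (103 and 105 TPM in knockout, 94.0 and 109 TPM in control) were present as the gate requires, and Cd4, Cd8a and Cd8b1 stayed under 2 TPM in every library. Il2ra, the gene of CD25, was at 0.66 and 0.39 TPM in knockout and at 136 and 133 TPM in control, so its RNA was high in control cells sorted as CD25-negative. Of 16 stromal genes 14 were tested and 11 rose in knockout, with a summed level of 2610 and 2143 TPM in knockout against 1110 and 1135 TPM in control. Of the immediate early and handling stress genes, 12 of 15 tested fell in knockout and 0 rose, with summed levels of 885 and 874 TPM in knockout against 2320 and 2282 TPM in control. The part of either list in the results on the control-only promoters was not tested.

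The promoter sequences below are from some of the genes whose control-only region covers at least 100 bases of the window between 250 bases before and 50 bases after the gene start. They are shown for genes of the T-cell receptor complex (Cd3g, Cd247), an inhibitory receptor of T cells (Ctla4), a lymphoid cytokine (Ltb), a cytotoxic granule enzyme (Gzma), a lectin-like surface protein (Clec2i), a gene with letters of the TCF/LEF motif (Psg17) and a gene open in control with no RNA (Ifng). The sequences are the 250 bases before the start in RefSeq on GRCm38.p6, the assembly that mm10 denotes. They are written 5′ to 3′ on the strand of the gene. The control-only region covers part of each stretch, namely 161 of the 250 bases at Cd3g, 102 at Cd247, 113 at Ctla4, 233 at Ltb, 170 at Gzma, 106 at Clec2i, 142 at Psg17 and 208 at Ifng. Capitals mark matches to an E-box (CAGCTG or CAGGTG on either strand) or to a TCF/LEF motif (CTTTGAT or CTTTGAA or CTTTGTT or CTTTGTA on either strand), and a match is a description of letters, not a bound site. Rag2 and Tigit also meet the overlap (144 and 300 bases) but are not printed, and their 250 bases hold no match to either motif. The printed sequences thus do not show how often promoters hold a match.
Cd3g, chr9:44980432-44980681, minus strand: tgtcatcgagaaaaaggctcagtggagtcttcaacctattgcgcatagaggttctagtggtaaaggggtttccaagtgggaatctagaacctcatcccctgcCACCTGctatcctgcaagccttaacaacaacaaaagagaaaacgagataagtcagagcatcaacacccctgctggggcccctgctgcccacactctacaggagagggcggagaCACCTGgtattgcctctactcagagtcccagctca
Cd247, chr1:165788431-165788680, plus strand: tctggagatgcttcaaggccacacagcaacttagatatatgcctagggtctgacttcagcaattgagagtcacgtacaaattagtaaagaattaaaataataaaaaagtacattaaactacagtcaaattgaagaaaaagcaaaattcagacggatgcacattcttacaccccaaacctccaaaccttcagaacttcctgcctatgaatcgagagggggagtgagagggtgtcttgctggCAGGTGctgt
Ctla4, chr1:60908775-60909024, plus strand: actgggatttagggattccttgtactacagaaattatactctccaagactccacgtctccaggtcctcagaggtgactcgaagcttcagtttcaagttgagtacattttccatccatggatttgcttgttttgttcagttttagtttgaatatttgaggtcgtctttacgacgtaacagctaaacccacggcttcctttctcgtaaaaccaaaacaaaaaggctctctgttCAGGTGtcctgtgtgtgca
Ltb, chr17:35194257-35194506, plus strand: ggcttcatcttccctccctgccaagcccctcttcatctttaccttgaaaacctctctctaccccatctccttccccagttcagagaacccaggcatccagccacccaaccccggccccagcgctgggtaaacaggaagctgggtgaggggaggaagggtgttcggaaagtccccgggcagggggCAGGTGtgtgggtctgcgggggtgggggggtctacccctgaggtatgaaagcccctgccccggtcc
Gzma, chr13:113100982-113101231, minus strand: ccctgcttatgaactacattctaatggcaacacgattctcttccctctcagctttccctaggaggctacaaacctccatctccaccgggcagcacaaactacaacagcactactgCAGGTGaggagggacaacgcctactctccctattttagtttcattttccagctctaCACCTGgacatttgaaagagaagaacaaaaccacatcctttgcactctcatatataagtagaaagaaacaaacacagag
Clec2i, chr6:128887340-128887589, plus strand: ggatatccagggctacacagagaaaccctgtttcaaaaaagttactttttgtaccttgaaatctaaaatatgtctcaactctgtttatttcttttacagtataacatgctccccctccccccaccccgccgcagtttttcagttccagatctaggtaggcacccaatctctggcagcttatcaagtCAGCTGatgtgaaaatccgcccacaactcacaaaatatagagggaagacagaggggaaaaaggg
Psg17, chr7:18821592-18821841, minus strand: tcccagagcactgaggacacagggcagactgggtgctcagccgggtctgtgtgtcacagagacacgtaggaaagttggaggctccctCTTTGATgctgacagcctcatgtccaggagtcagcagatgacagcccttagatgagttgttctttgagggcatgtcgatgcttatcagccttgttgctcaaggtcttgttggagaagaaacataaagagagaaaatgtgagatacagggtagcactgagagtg
Ifng, chr10:118440796-118441045, plus strand: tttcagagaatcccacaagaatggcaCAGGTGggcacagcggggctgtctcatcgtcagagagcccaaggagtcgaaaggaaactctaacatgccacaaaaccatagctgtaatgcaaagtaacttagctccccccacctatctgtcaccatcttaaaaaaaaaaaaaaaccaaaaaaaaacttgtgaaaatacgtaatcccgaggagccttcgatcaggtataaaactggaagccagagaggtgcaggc
The Cd3g promoter holds E-box matches whose first bases lie 148 and 35 bases before the start, and the Gzma promoter holds them 135 and 79 bases before it. In Cd247 the match begins 10 bases before the start, in Ctla4 19 bases, in Clec2i 64 bases and in Ltb 66 bases. The Psg17 promoter holds no E-box in this stretch and has CTTTGAT beginning 163 bases before the start. In Ifng the match begins 224 bases before the start. The E-box matches in these stretches lie inside the control-only region, whereas CTTTGAT of Psg17 lies outside it. Ifng was added to the sequences after its values were seen, as it lies outside the rule for named genes.

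The control-only promoter regions were mostly weak peaks that lay away from the gene start itself. Their strength is given as the lower of the replicate −log10 q values, where q is the authors' false discovery estimate for a peak. The median was 8.38 for the control-only promoter regions (quartiles 6.52 and 12.2, range 3.82 to 93.5), against 7.65 for the 573 promoter regions open in knockout only and 83.0 for the 14462 promoter regions with a peak in all 4 lists. Of the control-only promoter regions, 160 (64.5%) had a lower value under 10 and 16 (6.45%) reached 20. Among promoter regions in all 4 lists, 6.81% were under 10 and 81.8% reached 20. The median fold enrichment over local background, also the lower of the replicates and the authors' own value, was 4.39 for control-only promoters, 4.69 for knockout-only promoters and 11.6 for promoters in all 4 lists. The median width was 226, 239 and 577 bases in the same 3 classes. These values chose the regions or came with the choice, and no test was made on them.

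**Figure D1:**
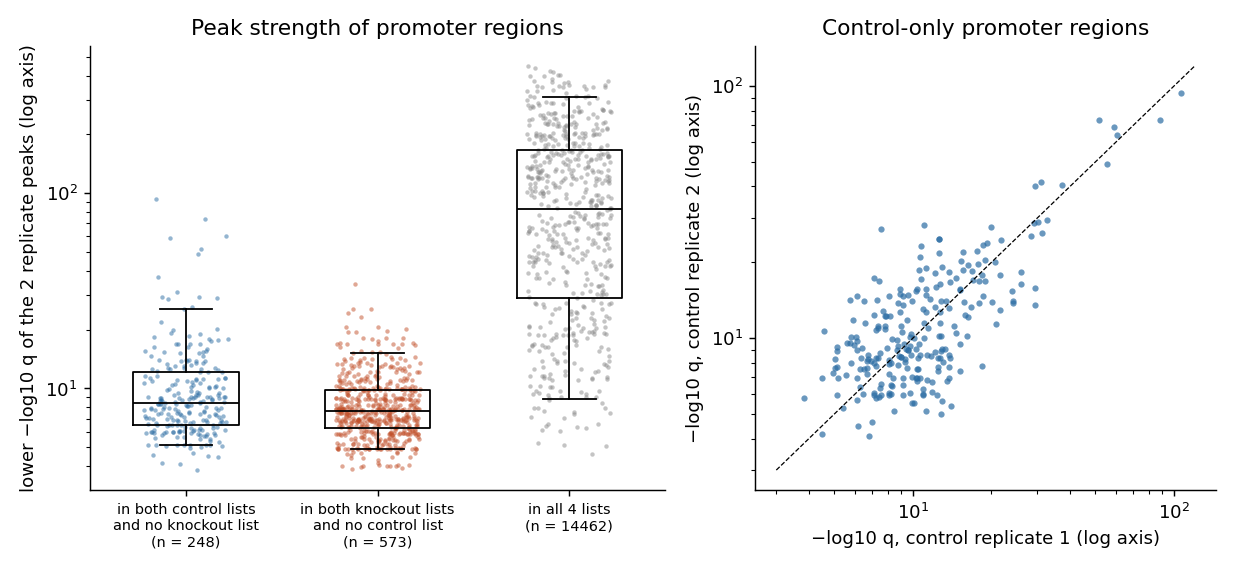
Peak strength of promoter regions. Left, the lower of the replicate −log10 q values (log axis) for regions open in control only, in knockout only and in all 4 lists; boxes give quartiles and medians, whiskers the 5 to 95 percentile span, points are regions, and for regions in all 4 lists a random subset of points is drawn. Right, −log10 q of the 248 control-only promoter regions in control replicate 1 against control replicate 2 (log axes, dashed line of equality). The control-only median of 8.38 lies far below the 83.0 of regions in all 4 lists, and 5 regions reach 50 or more in both control lists.

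The choice also depended on every library. With a knockout list left out, 389 or 408 regions qualified (without knockout replicate 1 or 2), and with a control list left out 506 or 469 did (without control replicate 1 or 2). Just inside the 1 kb limit lay regions at Sox5os3 (989 bases), 8430408G22Rik (993.5 bases) and Fam96b (999.5 bases). Just outside it lay regions at Dennd6b (1001.5 bases), Zrsr2 (1003.5 bases) and Grin2c (1004.5 bases). The weakest members were at F930015N05Rik, Bcl9l and Cntn1, with lower −log10 q values of 3.82, 4.08 and 4.17. The lowest −log10 q in any list was between 2.74 and 2.87, so a knockout peak just under the calling limit would not be seen here.

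Promoter regions made up a small share of what was open in control only. They were 3.84% of the 6458 control-only regions, against 6.41% of the 8939 knockout-only regions and 18.1% of the 79684 regions in all 4 lists. The centre lay within 250 bases of the start in 72 of the 248 control-only promoter regions (29.0%), in 50.3% of the knockout-only promoter regions and in 73.3% of the promoter regions in all 4 lists. It lay more than 500 bases away in 134 (54.0%), 32.6% and 15.8% of those classes. The median distance was 541.75, 247.5 and 115 bases. Upstream centres were 44.0%, 44.3% and 45.9%, so similar shares lay upstream.

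**Figure D2:**
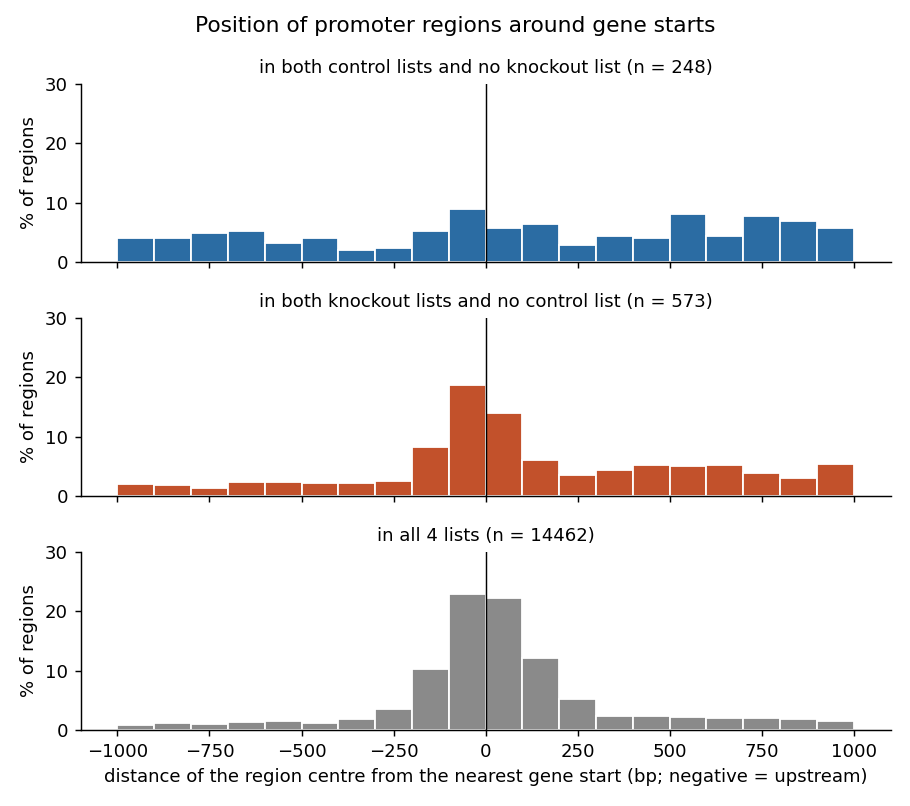
Position of promoter regions around the nearest gene start. Each panel gives the percentage of regions in bins of distance from the start (bases, negative upstream) for regions open in control only, in knockout only and in all 4 lists. The control-only panel is nearly flat across the 1 kb on each side, with 29.0% of centres within 250 bases, whereas regions in all 4 lists pile up at the start, with 73.3% within 250 bases.

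Many control-only regions lay beside another region open in both genotypes, which is not particular to these promoters. Another region holding a knockout peak lay within 1 kb of the same start for 141 of the 248 regions (56.9%), and a region in all 4 lists did so for 128 (51.6%). By gene, 138 of the 258 (53.5%) also had a promoter region in all 4 lists. Over all genes, 14009 of 24538 had one. No other region lay within 1 kb of the start for 97 (39.1%). The nearest knockout peak was a median of 521.5 bases away, with a range of 26 to 120002 bases. It was within 200 bases for 39 regions (15.7%) and beyond 5 kb for 34 (13.7%). The 248 regions were spread over the genome, with 24 on chromosome 2, 21 on chromosome 11 and 20 on chromosome 9, and 15 (6.05%) lay within 100 kb of another. Among these were Ltb and Lta on chromosome 17, which encode the related cytokines lymphotoxin beta and lymphotoxin alpha, and 3 regions at Cntn1 on chromosome 15. On chromosome 6, Clec2i and BC064078 each lay within 100 kb of the Mir7649 region between them, though not of each other.

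Of the 258 genes, 198 of the 246 with a RefSeq type were protein-coding (80.5%) and 33 were long non-coding RNAs (13.4%), against 89.0% and 7.83% at knockout-only promoters and 92.1% and 5.56% at promoters in all 4 lists. The genes had a median of 2.20 TPM over the libraries, against 1.44 TPM at knockout-only promoters, 15.3 TPM at promoters in all 4 lists and 1.78 TPM over all genes. In the limma fit across 13228 genes with a mean of at least 1 TPM, 151 of the 258 were tested (58.5%), against 53.9% of all genes. The other 107 were under the filter, and 16 of these were listed at 0 in all 4 libraries.

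More genes at the control-only promoters fell than rose in knockout, whereas across all tested genes more rose than fell. Of the 151 tested genes, 43 fell in knockout (28.5%), against 14.7% of all tested genes, and 26 rose (17.2%), against 25.2% of all tested genes, by limma with Benjamini-Hochberg adjusted p under 0.05. The other 82 did not pass. All 43 and all 26 had replicate values that did not overlap between genotypes. With so few libraries a call largely requires this, so it is not separate evidence. The same share over all called genes was not counted. The median log2 change was −0.13 over the 151 genes and 0.09 over all tested genes. With a log2 change of at least 1 as well, 20 genes fell (13.2%, against 3.85% of all tested genes) and 8 rose (5.3%, against 3.58%). The filter passed 10 genes through control alone, with a mean under 1 TPM in knockout. Of these, 4 are among the 43, namely Cd3g, Psg17, Olfr524 and 4930428O21Rik. It passed 2 genes through knockout alone, with a mean under 1 TPM in control, and 1 of these, Alpl, is among the 26. Such genes were tested only because of their level in the genotype where they are high. In bulk samples, fewer cells of a type and less RNA per cell cannot be told apart.

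The background itself moved with the scaling. Of all called genes 36.8% were lower with TPM as deposited, 46.8% with quantile-normalized values and 48.1% with values scaled by median ratios. At the control-only promoters that share was 62.3%, 64.3% and 66.7%. Leaving out control RNA replicate 1 or 2 left 1088 or 1128 of all genes lower, against 1940 with all libraries. Of all genes, 2005 were higher without knockout RNA replicate 1, and 2018 or 2025 without control replicate 1 or 2, against 3331 with all libraries. Leaving out control ATAC replicate 1 gave 79 of 324 tested genes lower (24.4%) at the regions that then qualified, and 67 higher (20.7%). Leaving out control ATAC replicate 2 gave 76 of 303 lower (25.1%) and 52 higher (17.2%). Without knockout ATAC replicate 1, 63 of 241 were lower (26.1%) and 45 higher (18.7%). With all lists 28.5% were lower and 17.2% higher.

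At regions with a centre near the start, falls outnumbered rises by the widest margin of the 3 positions. Where the centre lay within 250 bases of the start, a split added after the data were seen, 20 of 38 tested genes fell (52.6%) and 3 rose (7.89%), with a median log2 change of −0.86. Of these, 15 fell by at least 1 and 0 rose by at least 1. Among the 20, Cd3g, Psg17 and 4930428O21Rik passed the filter through control alone. Where the centre lay further upstream, 8 of 36 fell (22.2%) and 9 rose (25%). Where it lay further downstream, 15 of 77 fell (19.5%) and 14 rose (18.2%). At knockout-only promoters, 10 of 122 tested genes with a centre within 250 bases fell (8.2%) and 56 rose (45.9%). At promoters in all 4 lists, 13.7% fell and 27.7% rose at that distance. The 3 genes that rose became 1 without knockout RNA replicate 1, 1 without knockout replicate 2 and 0 without control replicate 1. With 1 ATAC list left out they became 5 of 54 tested (knockout replicate 1), 6 of 59 (knockout replicate 2), 6 of 66 (control replicate 1) and 5 of 63 (control replicate 2). The genes that fell were then 23 (42.6%), 24 (40.7%), 25 (37.9%) and 30 (47.6%) in the same order. Each of these shares is below the 52.6% with all lists.

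**Figure D3:**
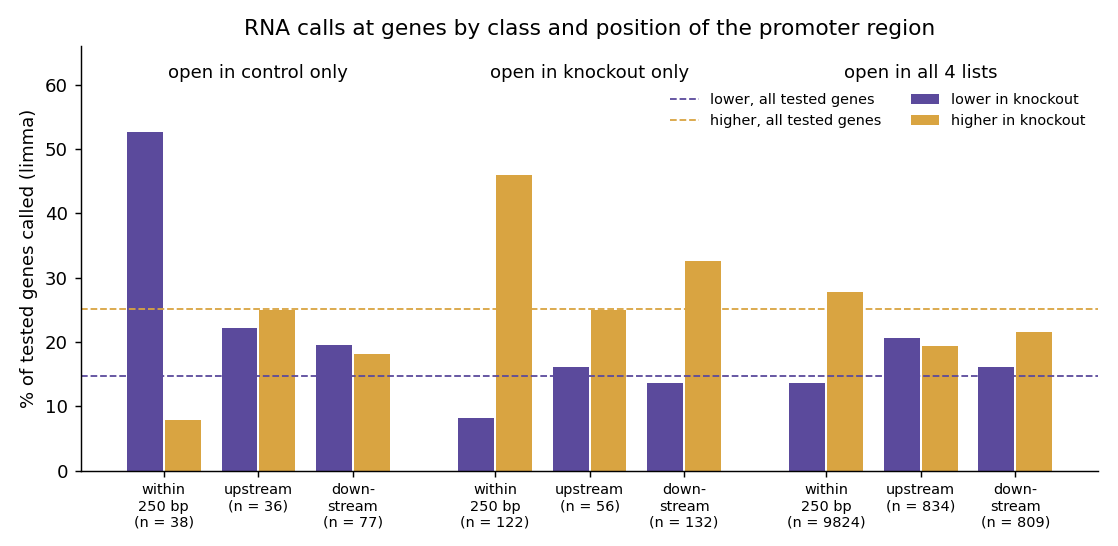
RNA calls at genes by class and position of the promoter region. Bars give the percentage of tested genes lower (purple) or higher (yellow) in knockout by limma, for regions with a centre within 250 bases of the start, further upstream or further downstream, with the number tested under each pair. Dashed lines give the same shares over all tested genes (14.7% and 25.2%). The bar for control-only regions within 250 bases stands at 52.6% lower and 7.89% higher.

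Genes were also divided by whether another knockout peak lay at the start. Of 106 genes with no knockout peak within 1 kb of the start, 44 were tested, 18 fell (40.9%) and 2 rose (4.55%), and 14 fell by at least 1. Of 152 genes that had another region with a knockout peak there, 107 were tested, 25 fell (23.4%) and 24 rose (22.4%), and 6 fell by at least 1. By peak strength, at regions with a lower −log10 q of at least 10, 18 of 56 tested genes fell (32.1%) and 12 rose (21.4%), and at weaker regions 25 of 95 fell (26.3%) and 14 rose (14.7%). The differences between positions, between starts with and without another knockout peak, and between strengths were not tested.

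Components of the T-cell receptor complex had the largest falls. Cd3g, which encodes the gamma chain of CD3, stood at 1.07 and 0.34 TPM in knockout, against 88.2 and 99.9 TPM in control. The mean was 133-fold lower in knockout, with a log2 change of −5.83 (SE 0.23, limma adjusted p = 0.000204). Cd3g passed the filter through control alone. The region, chr9:44980297-44980592 on mm10, is centred 13.5 bases upstream of the Cd3g start and had −log10 q values of 15.8 and 13.9 in the control lists, and the nearest knockout peak was 5638 bases away. Cd3d, whose start lies 1355 bases from that of Cd3g, had no region within 1 kb of its start, and neither had Cd3e. Cd247, which encodes the zeta chain of the complex, stood at 0.58 and 2.16 TPM in knockout, against 20.1 and 24.0 TPM in control. The log2 change was −3.36 (SE 0.34, limma adjusted p = 0.00175), and the groups of values did not overlap. Its region, chr1:165788579-165788826, spans the start, with −log10 q values of 7.43 and 16.8 in control.

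Further genes of the T-lineage list lay at control-only promoters. Thy1, a glycosylphosphatidylinositol-anchored surface protein of mouse T cells, stood at 4.37 and 4.79 TPM in knockout, against 44.8 and 40.4 TPM in control (log2 change −2.97, SE 0.11, limma adjusted p = 0.000204). Here a knockout peak lay 175 bases from the region. Rag2, which with Rag1 forms the recombinase that cuts antigen receptor genes, stood at 2.13 and 2.64 TPM in knockout, against 6.25 and 4.99 TPM in control (log2 change −0.96, SE 0.21, limma adjusted p = 0.0166). That call was lost without knockout RNA replicate 1 and without either control RNA replicate, with adjusted p up to 0.0905 over the alternatives. Of the 26 T-lineage genes on the list 22 were tested, 20 fell and 0 rose, and their summed level was 183 and 196 TPM in knockout against 883 and 851 TPM in control. A control-only promoter region was thus present at 4 of the 26 starts, while 17 had a region in all 4 lists, 0 had a knockout-only region and 7 had no region, with some starts having regions of both kinds.

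Further falls included genes of lymphocyte signalling and effector function. Ctla4, an inhibitory receptor that competes with CD28 for its ligands, stood at 1.17 and 1.73 TPM in knockout, against 11.7 and 14.7 TPM in control (log2 change −2.54, SE 0.21, limma adjusted p = 0.00101). Its region, chr1:60908912-60909155, was weak in control replicate 1 (−log10 q of 5.92) and stronger in replicate 2 (11.8). Ltb, which encodes lymphotoxin beta, a cytokine that shapes lymphoid tissue, stood at 9.31 and 9.67 TPM in knockout, against 45.7 and 39.3 TPM in control (log2 change −2.05, SE 0.11, limma adjusted p = 0.000378). Its region, chr17:35194274-35194649, had −log10 q values of 8.20 and 12.2, and the nearest knockout peak was 720 bases away. Blk, a Src-family kinase of B cells and some T cells, stood at 1.42 and 1.27 TPM in knockout, against 6.29 and 6.24 TPM in control (log2 change −1.63, SE 0.19, limma adjusted p = 0.00247). The Blk region was among the 15 strongest, with −log10 q values of 31.3 and 26.2.

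Gzma, a granule protease of cytotoxic and innate lymphocytes, stood at 35.8 and 37.2 TPM in knockout, against 134 and 126 TPM in control (log2 change −1.80, SE 0.060, limma adjusted p = 0.000151). It is on the list of NK and innate lymphoid genes, of which 7 of 11 tested fell and 1 rose, with summed levels of 432 and 436 TPM in knockout against 884 and 899 TPM in control. Whether the change of that list has a part in the Gzma result was not tested. Clec2i, which encodes a C-type lectin-related protein, stood at 2.48 and 2.92 TPM in knockout, against 18.3 and 18.5 TPM in control (log2 change −2.39, SE 0.14, limma adjusted p = 0.000479). BC064078, Lpxn, Tspan13 and Rpl34-ps1 lie outside the rule for named genes and were chosen after their values were seen. BC064078, a neighbour of Clec2i on chromosome 6, fell by 1.57 on the log2 scale (limma adjusted p = 0.00175). Lpxn, an adaptor protein of the paxillin family, stood at 4.88 and 5.18 TPM in knockout, against 15.4 and 15.8 TPM in control.

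Other large falls were at genes of varied kinds. Endou, an endoribonuclease, stood at 2.72 and 1.34 TPM in knockout, against 13.5 and 12.9 TPM in control. Psg17, of the pregnancy-specific glycoproteins, had 0 and 0 TPM listed in knockout, against 2.52 and 2.12 TPM in control, so no fold is given. 8430430B14Rik stood at 8.22 and 5.46 TPM in knockout, against 26.7 and 26.6 TPM in control. All 3 passed the test, with limma adjusted p of 0.00228, 0.00648 and 0.00171. Psg17 passed the filter through control alone. The sources used here do not say whether counting was stranded, so overlapping and antisense genes cannot be told apart.

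The beta-globin entries Hbb-b2 and Hbb-bt have the same coordinates, chr7:103812524-103813923 on the minus strand. They lie at one of the strongest control-only promoter regions, chr7:103813792-103814160, with −log10 q values of 55.5 and 48.9. Hbb-b2 stood at 17.4 and 27.7 TPM in knockout, against 144 and 330 TPM in control (log2 change −3.25, SE 0.41, limma adjusted p = 0.00327). Hbb-bt stood at 13.5 and 0.79 TPM in knockout, against 111 and 16.0 TPM in control, and did not pass (limma adjusted p = 0.1003). Reads of that locus may have been divided between these entries, so each value is uncertain. Hbb-b1, a further beta-globin entry added after its values were seen, has no start at a control-only promoter region. It stood at 1.27 and 2.53 TPM in knockout, against 16.8 and 21.0 TPM in control (log2 change −2.81, limma adjusted p = 0.00129). Whether Hbb-b1 shares reads with the other entries was not tested. Of the erythroid and megakaryocyte list, 4 of 9 tested genes rose and 1 fell, with summed levels of 440 and 444 TPM in knockout against 291 and 300 TPM in control, and Hba-a1 was at 0 in every library. Whether these cells have a part in the globin values was not tested.

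**Figure D4:**
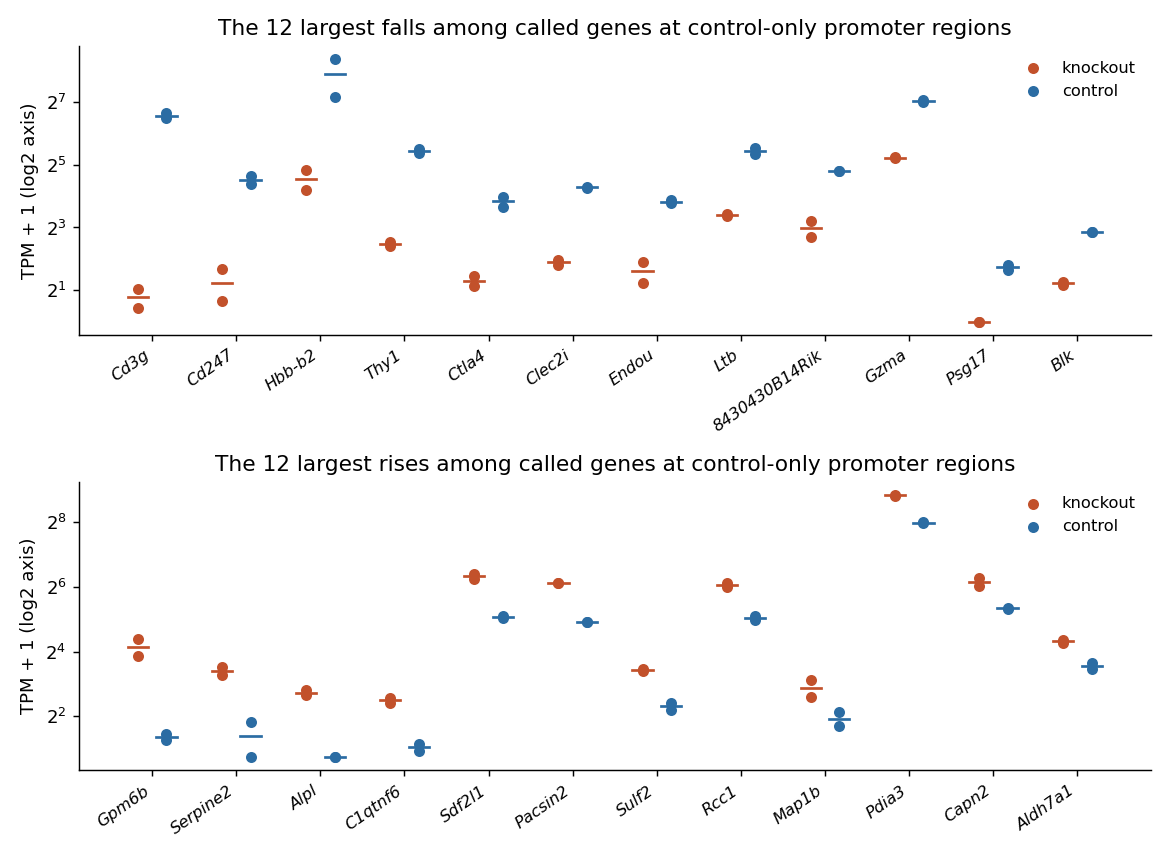
RNA at the 12 largest falls (top) and 12 largest rises (bottom) among called genes at control-only promoter regions. Each point is TPM + 1 in 1 library (log2 axis), knockout in orange to the left of control in blue, and bars are means. Cd3g shows the widest gap among the falls and Gpm6b among the rises. No gene shown has overlapping genotypes, which with so few libraries a call largely requires.

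Among the falls that are smaller, Itgam, an integrin chain of myeloid and NK cells, stood at 20.5 and 20.7 TPM in knockout, against 33.4 and 30.7 TPM in control (log2 change −0.61, SE 0.085, limma adjusted p = 0.00431). On the myeloid list 10 of 24 tested genes rose and 4 fell, with summed levels of 4265 and 4163 TPM in knockout against 2496 and 2470 TPM in control. Tspan13, of the tetraspanin family, stood at 85.4 and 83.8 TPM in knockout and at 170 and 170 TPM in control. Rpl34-ps1 stood at 1374 and 1418 TPM in knockout and 2767 and 2942 TPM in control. Its region also lies within 1 kb of the start of the ribosomal gene Rpl34. Reads may have been divided between these entries, so the value is uncertain. Nkd1, a Wnt target that dampens the pathway, was at 0.89 and 1.11 TPM in knockout and 1.07 and 0.70 TPM in control, was under the filter and was not tested.

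The largest rises at control-only promoters were at Gpm6b, Serpine2 and Alpl. Gpm6b, a membrane proteolipid, stood at 19.8 and 13.7 TPM in knockout, against 1.75 and 1.40 TPM in control (log2 change 2.77, SE 0.22, limma adjusted p = 0.00092). Alpl, an alkaline phosphatase, stood at 5.31 and 5.98 TPM in knockout, against 0.67 and 0.67 TPM in control (log2 change 1.99, SE 0.21, limma adjusted p = 0.00193). Alpl passed the filter through knockout alone. Serpine2, an inhibitor of serine proteases, stood at 8.62 and 10.4 TPM in knockout, against 0.68 and 2.53 TPM in control (log2 change 2.10, SE 0.37, limma adjusted p = 0.00927), and its call was lost without knockout RNA replicate 2 (adjusted p = 0.0551). In all 3 the replicate values of the genotypes were apart. The stromal list that moved with these genes had 11 of 14 tested members higher and 0 lower, and none of its genes had a start at a control-only promoter region. Dll1, the ligand that OP9-DL1 cells carry, was at 671 and 534 TPM in knockout and at 236 and 241 TPM in control. Whether stromal RNA has a part in these rises was not tested.

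The endoplasmic reticulum genes Sdf2l1 and Pdia3, both of protein folding, also rose. Sdf2l1 stood at 82.9 and 74.7 TPM in knockout, against 33.0 and 31.7 TPM in control (log2 change 1.26, SE 0.075, limma adjusted p = 0.000479). Pdia3 stood at 455 and 442 TPM in knockout, against 249.97 and 252 TPM in control (log2 change 0.84, SE 0.036, limma adjusted p = 0.000245). Both regions lay downstream of the start, at 745.5 and 580 bases, and both starts had another region with a knockout peak. Pacsin2, a membrane-bending protein of endocytosis, stood at 68.9 and 68.2 TPM in knockout, against 28.8 and 29.2 TPM in control. Rcc1, which loads the small GTPase Ran with nucleotide, stood at 68.1 and 63.2 TPM in knockout, against 33.0 and 30.2 TPM in control. C1qtnf6, Sulf2, Capn2 and Aldh7a1 rose by 1.44, 1.11, 0.81 and 0.76 on the log2 scale (limma adjusted p between 0.00262 and 0.00593). Map1b, a microtubule-associated protein, rose by 0.93 (limma adjusted p = 0.0381), and that call was lost under 5 of its 10 alternatives, with adjusted p up to 0.163.

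Of the genes at the 15 strongest control-only promoter regions, Hbb-b2 and Blk fell, Hist1h4n rose and no other passed the test. The strongest region, at the histone genes Hist1h4n and Hist1h4m, had −log10 q values of 106 and 93.5, and a knockout peak lay 171 bases away. Hist1h4n stood at 392 and 450 TPM in knockout, against 291 and 310 TPM in control, a rise whose call was lost without control RNA replicate 1 (adjusted p = 0.0518), and histone copies share reads. Ccl9, a chemokine, had −log10 q values of 88.3 and 73.4 at a region centred 686 bases upstream of its start, and stood at 39.7 and 36.1 TPM in knockout and at 41.2 and 39.0 TPM in control. Lyz1, a lysozyme, had 60.4 and 63.9 and stayed under 1 TPM in every library. Tmem120b had 59.2 and 68.8 and stood at 3.89 and 3.501 TPM in knockout and at 3.58 and 5.00 TPM in control. Aqp9, a channel for water and glycerol, had 32.7 and 29.4 and stood at 10.2 and 13.0 TPM in knockout and at 13.1 and 10.3 TPM in control. In Ccl9, Tmem120b and Aqp9 the genotypes overlapped and the test did not pass.

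The remaining regions of the 15 strongest lay at 1700022E09Rik, Gm10389, Nme5, Efcab3, Olfr530, Atcayos, Calml3 and Slc47a1. 1700022E09Rik, Efcab3 and Atcayos were listed at 0 in every library, and Nme5, Olfr530, Calml3 and Slc47a1 stayed under 1 TPM in every library. The Olfr530 region had the longest distance to a knockout peak, 120002 bases.

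Several promoters of immune genes were open in control with little or no RNA in either genotype, and these were chosen after their values were seen. Ifng, which encodes interferon gamma, was listed at 0 in all 4 libraries, with −log10 q values of 8.12 and 7.91 at a region whose centre lies 266.5 bases upstream of the start. Il2, which encodes the T-cell growth factor interleukin 2, was at 0.20 and 0 TPM in knockout and at 0 in both control libraries, with −log10 q values of 13.5 and 6.76. Tigit, an inhibitory receptor of T and NK cells, was at 0.51 and 0 TPM in knockout and at 1.004 and 0 TPM in control, with −log10 q values of 13.3 and 9.06. Lta, beside Ltb, was at 0.32 and 0 TPM in knockout and at 1.45 and 1.246 TPM in control, and was not tested because its mean is under 1 TPM. Klra7, of the Ly49 family of NK-cell receptors, was listed at 0 in every library. None of these 5 genes had a knockout peak within 1 kb of the region, the nearest being 1004 bases away at Ifng and 8556 bases away at Tigit.

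The promoter windows that the regions covered held fewer CpG dinucleotides than those of promoters in all 4 lists, with a median near that of all windows. RefSeq windows from 250 bases before to 50 bases after the start were found for 186 of the 258 genes, and 38 of these windows were covered by the region over at least 100 bases. They held a median of 5 CpG dinucleotides per 300 bases (quartiles 3 and 9.75), against 22 in the 9523 windows of promoters in all 4 lists and 7 in all 32851 windows. The GC content had a median of 51.3%, against 62.3% and 52.7% in the same windows. Among the 38 windows, CpG counts ran from 0 to 35. The parts of the regions outside these windows were not searched.

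Short motifs were searched on both strands. E-box letters (CAGCTG or CAGGTG), which bind basic helix-loop-helix proteins such as E proteins, occurred in 21 of the 38 windows (55.3%), against 28.9% of the windows at promoters in all 4 lists and 32.9% of all windows. TCF/LEF letters (CTTTGAT or CTTTGAA or CTTTGTT or CTTTGTA), which the proteins deleted here bind, occurred in 8 (21.1%), against 9.87% and 16.9%. GATA letters (AGATAA or TGATAA) occurred in 21.1%, against 8.16% and 18.6%, and RUNX letters (TGTGGTT or TGCGGTT) in 13.2%, against 6.24% and 6.75%. ETS letters (CGGAAG or AGGAAG) occurred in 36.8%, against 55.9% and 46.5%, and GC box letters (GGGCGG) in 34.2%, against 69.9% and 35.7%. NF-Y letters (CCAAT) occurred in 34.2%, against 38.5% and 37.4%. AP-1 letters (TGAGTCA or TGACTCA) occurred in 2.63%, against 3.14% and 5.2%, and CRE letters (TGACGTCA) in 0 of 38, against 3.65% and 1.79%. With 38 windows these are descriptions, no test was made, and letters are not bound sites. The 8 windows with TCF/LEF letters were those of Casp12, Cntn1, Ctla4, Gm1647, Il19, Klra7, Psg17 and Trpv4. The letters lie inside the control-only region in 5 of these windows, and outside it in Casp12, Il19 and Psg17. E-box letters lie inside the region in 20 of the 21 windows that hold them. Ctla4 and Psg17 fell in knockout, Casp12 rose, and the other 5 genes were under the filter. The Casp12 call was lost under 7 of 10 alternatives, every left-out RNA library among them, with limma adjusted p up to 0.18. In Ctla4 the letters lie after the start and so are not in the sequence printed above.

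**Figure D5:**
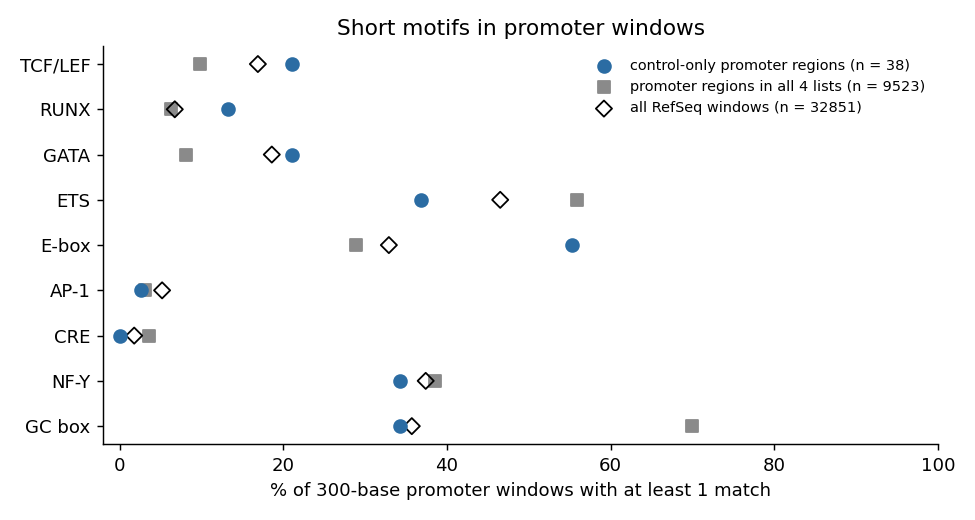
Short motifs in 300-base promoter windows. Points give the percentage of windows with at least 1 match on either strand for control-only promoter regions (filled circles, 38 windows), promoter regions in all 4 lists (squares, 9523) and all RefSeq windows (open diamonds, 32851). The E-box point for control-only promoters stands at 55.3%, right of both other points, and the GC box point at 34.2%, near all windows and left of the squares.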

How the data were processed

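RNA was measured in 2 knockout and 2 control libraries and open chromatin by ATAC-seq in 2 and 2, grouped by the sample titles. Reads were aligned with HISAT2 and abundances estimated with StringTie for RNA, and aligned with Bowtie2 and called with MACS2 for ATAC-seq, on mm10, as named without versions in the submitters' processing notes. Per the file headers, the authors deposited TPM, FPKM and a coverage signal per gene. TPM was the measure here, FPKM an alternative, and coverage served as a guide to depth, its commonest ratio to FPKM being 2.638 and 2.63 in knockout and 2.412 and 2.122 in control. The authors' peak lists, 1 per library, give a fold enrichment (ratio), a −log10 p-value, a −log10 q-value and a score per peak. The sources used here do not give thresholds, duplicate removal or any transposase shift. ATAC depth is unknown, and no read counts were used.

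Peaks were merged with an overlap of at least 1 base, leaving out the mitochondrial chromosome. The RNA test was limma 3.58.1 in R 4.3.3 on log2(TPM + 1) (lmFit, eBayes with an intensity trend, genotype only) over 13228 genes with a mean of at least 1 TPM, with Benjamini-Hochberg adjustment over all of them. Changes on this scale understate those of low genes. The code was tested on simulated data. Correlations of log2(TPM + 1) across genes, which are not independent replicates, were 0.983 within each genotype and 0.943 to 0.947 between genotypes.

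The members, gene lists and tests were chosen with earlier results of these data known. Named genes were Tcf7 and Lef1, the 15 strongest regions by the lower control −log10 q, of the called genes with non-overlapping replicates the 12 that fell most and the 12 that rose most, the listed genes with a start at a member, and the regions nearest to the limits. Genes outside this rule are said in the text to have been chosen after their values were seen, or are those whose promoter window held TCF/LEF letters. The motif search had been planned on the regions, and was made on RefSeq promoter windows because no genome was used here. The split at 250 bases was added after the data were seen. Alternatives covered the pseudocount, filter, scaling, unit, replicate block, left-out libraries and the region rule.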

Additional observations from a re-analysis of the deposited data

How the results depend on the processing

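No called gene changed direction under any alternative. Of the 69 called genes at control-only promoters, 45 (28 lower, 17 higher) were called by limma under each of up to 11 alternatives of the RNA comparison that tested them, and 24 were lost under at least 1. With a centre limit of 500 bases, 114 regions qualified, with a median −log10 q of 8.1395. Of 57 tested genes 22 were lower (38.6%) and 5 higher (8.77%), against 14.7% and 25.2% of all tested genes. With a limit of 2 kb, 434 regions qualified, with a median of 8.9005. There, 75 of 294 tested genes were lower (25.5%) and 56 higher (19%). Requiring a −log10 q of at least 10 in every list, a limit that itself raises the median, gave 214 regions with a median of 13.5124. They had 225 genes, 99 of them among the 258. Of 128 that were tested, 43 were lower (33.6%) and 20 higher (15.6%). Within 250 bases of the start, 13 of 20 tested genes were lower with a minimum mean of 5 TPM, against 20 of 38 in the main comparison. At that distance 1 of 32 was higher when regions with a knockout peak within 200 bases were left out, against 3 of 38. Leaving out 1 library in turn gave 389 to 506 regions, a median −log10 q of 8.1415 to 8.3929, 29 to 79 genes lower and 19 to 67 higher at the regions, 16 to 30 lower and 0 to 6 higher within 250 bases of the start, and 1088 to 1450 lower and 2005 to 2242 higher over all genes. Where that left 1 library in a group, it was assumed to vary like the other group. With 1 ATAC list left out, 24.4% to 26.6% of the tested genes at the regions were lower, against 28.5% with all lists. From 15.4% to 20.7% were higher, against 17.2%. The cause of these shifts was not tested, beyond the fewer or more regions and libraries that each alternative holds by construction.

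The deviations of same-numbered libraries were nearly uncorrelated (r = 0.00432 over 13228 genes). With so few libraries this value cannot show whether they share a mouse or culture, which was not tested. With a replicate block, 40 genes were lower and 25 higher at the regions, 20 lower and 2 higher within 250 bases of the start, and 1798 lower and 3072 higher over all genes.

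Peak lists carry no read counts, so absence from a list means only that no peak passed the authors' threshold.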

Other observations

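Smaller changes at the control-only promoters included genes of chromatin and signalling, named here after their values were seen. Bcl9l, a coactivator of beta-catenin, stood at 49.7 and 48.9 TPM in knockout, against 70.3 and 72.8 TPM in control (log2 change −0.53, limma adjusted p = 0.00207). Hdac7, a histone deacetylase active in developing T cells, stood at 48.4 and 45.6 TPM in knockout, against 65.6 and 68.1 TPM in control (log2 change −0.50, limma adjusted p = 0.00325). Cbl, a ubiquitin ligase that limits receptor signalling, stood at 76.7 and 78.5 TPM in knockout, against 100.2 and 95.04 TPM in control (log2 change −0.33, limma adjusted p = 0.00739). The Polycomb gene Cbx2 and the histone demethylase gene Kdm7a fell by 0.57 and 0.71 on the log2 scale (limma adjusted p of 0.00636 and 0.00469). At each of these 5 starts another region with a knockout peak lay within 1 kb.

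Rises outside the rule for named genes included Uqcr11 and Atp5e, also chosen after their values were seen. Uqcr11, a subunit of respiratory complex III, stood at 297 and 290.3 TPM in knockout, against 193 and 159 TPM in control (log2 change 0.74, limma adjusted p = 0.00312). Atp5e, a subunit of the ATP synthase, stood at 137 and 143 TPM in knockout, against 103 and 87.5 TPM in control (log2 change 0.55, limma adjusted p = 0.00631). Their regions had centres 830.5 bases downstream and 624.5 bases upstream of the start, and in both genes the genotypes did not overlap.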
